A study of Mus musculus with 6 samples.

Results

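The interferon-induced transmembrane genes Ifitm1, Ifitm2, Ifitm3 and Ifitm6 were examined in RNA sequencing of mouse peripheral blood neutrophils. They were found by their symbols, and all 4 were present among the 47561 features of each file. The AVP group held 3 samples from mice given AVP for 30 days, and the control group held 3 samples labelled as a negative control. In both groups the cells were neutrophils sorted from blood by flow cytometry. The labels do not expand AVP, and no source used here gives strain, age, sex or dose. The labels do not say whether each sample came from its own mouse, so p-values reflect the spread among these samples, part of which may be technical.

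Interferon-induced transmembrane proteins are small membrane proteins of the CD225 family that hinder the fusion of enveloped viruses with the membranes of the cell. In human cells IFITM1 is found largely at the cell surface, and IFITM2 and IFITM3 largely in endosomes and lysosomes. Interferons raise the transcription of several of these genes through the interferon-stimulated response element (ISRE), a short promoter sequence. In mice the family is also known from germ cells, where Ifitm3 carries the older name fragilis, and Ifitm6 is a rodent member expressed in myeloid cells.

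Levels are in FPKM as deposited, a measure that corrects fragment numbers for transcript length and depth. The depth of a library, estimated from the value that 1 fragment adds to short pseudogenes, was about 14199000 to 16845000 fragments. At that depth the member with the fewest fragments in any library, Ifitm6, rested on an estimated 2438 to 6227 fragments per library, and Ifitm2 on 13622 to 44436. Counting error alone is then at most about 2.03% for a member, well below the differences between libraries. Of 10 neutrophil markers, 8 were above 0 in every library, while the granule genes Camp and Ltf were listed at 0 in 3 and 5 libraries. By limma, 0 of the 9 tested passed, and 3 had an unadjusted p under 0.05, against 8.47% of all genes tested. The fitted fold changes were above 0 for 5 of the 9 and below 0 for 4. Retnlg was at 10510, 11050 and 9729 FPKM in the AVP libraries, against 4925, 5057 and 5538 FPKM in the controls (log2 fold change 1.09, SE 0.15, adjusted p by limma 0.0659). The log2 fold change was 1.44 for Ly6g (SE 0.53) and -0.85 for Mmp9 (SE 0.35). Some libraries stood apart in transcripts of other cells. The basophil protease gene Mcpt8 reached 230.4 FPKM in AVP replicate 1, with 0 listed for the other 5 libraries. The summed level of 12 T and NK cell markers was 159.4 FPKM in AVP replicate 3, against 3.11 to 16.7 FPKM in the other libraries. The summed level of 15 monocyte markers was 1195, 1391 and 287 FPKM in AVP replicates 1 to 3, and 675.1, 1042 and 1369 FPKM in control replicates 1 to 3. Each of the 15, which include Ctss and Ly6c2, was above 0 in at least 1 library. The haemoglobin share of each library's FPKM was 29.2%, 15.1% and 17% in the AVP libraries, against 13.6%, 19% and 17.6% in the controls. Of 10 B cell markers, 9 had a fitted fold change below 0 and 0 passed by limma. By limma, 2 had an unadjusted p under 0.05, against 8.47% of all genes tested. The groups did not overlap for 4 of the 10 with AVP lower, Igkc included, against 7.63% of all genes. For 1 of the 10, Ighd, they did not overlap with AVP higher, against 6.39% of all genes. The sum of the 10 was 2123, 6832 and 5103 FPKM in the AVP libraries, against 7491, 8850 and 6564 FPKM in the controls. The part of these transcripts in the Ifitm levels was not tested.

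The 4 genes are protein-coding and lie in a cluster on chromosome 7, within 62.1 kb of the GRCm38 assembly (the mm10 build), from 140954837 to 141016892. Ifitm2 (gene identifier 80876) spans 140954837 to 140959686, Ifitm1 (68713) spans 140967429 to 140969827, Ifitm3 (66141) spans 141009590 to 141010744 and Ifitm6 (213002) spans 141015812 to 141016892. The pseudogene Gm7514 and the lncRNA gene Gm33504 lie between Ifitm1 and Ifitm3. The promoters are shown because their windows differ in matches to the interferon element. Each line is the 100 bases before the annotated transcript start (RefSeq, GRCm38.p6), 5′ to 3′ on the strand of the gene, with matches to the ISRE core GAAANNGAAA in capitals. The table gave 1 window for each member, at chr7:140967976-140968075 on the plus strand for Ifitm1, and on the minus strand at chr7:140955962-140956061 for Ifitm2, chr7:141010745-141010844 for Ifitm3 and chr7:141016893-141016992 for Ifitm6. The windows of Ifitm1 and Ifitm2 lie inside the spans of these genes, and bases outside the 300 base windows were not scanned.
Ifitm1: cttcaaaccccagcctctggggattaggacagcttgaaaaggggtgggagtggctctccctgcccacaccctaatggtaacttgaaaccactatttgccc
Ifitm2: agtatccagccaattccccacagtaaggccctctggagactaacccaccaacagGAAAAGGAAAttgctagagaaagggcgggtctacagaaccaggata
Ifitm3: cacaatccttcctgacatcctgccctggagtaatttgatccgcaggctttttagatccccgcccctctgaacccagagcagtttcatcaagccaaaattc
Ifitm6: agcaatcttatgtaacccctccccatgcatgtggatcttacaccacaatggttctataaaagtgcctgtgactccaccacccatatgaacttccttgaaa

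The ISRE core of Ifitm2 lay at positions -46 to -37, where -1 is the base before the annotated start. Ifitm3 held a pair of matches just past its annotated start, the first with the same 10 letters as the match in Ifitm2, and the 27 bases that hold both are at chr7:141010716-141010742 on the minus strand, positions 3 to 29.
Ifitm3 site: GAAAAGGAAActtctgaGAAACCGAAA
The windows of 300 bases around these starts of Ifitm1 and Ifitm6 held no match. On either strand, 3.43% of 32817 such windows in the mouse table held at least 1 ISRE core, and 0.222% held 2 or more. The shorter GAS core TTCNNNGAA, of another interferon-responsive element and the same on both strands, was found in Ifitm3 at positions 14 to 22, partly over the second ISRE core, and in Ifitm6 at -10 to -2. It was found in 8.29% of all windows, and not in those of Ifitm1 and Ifitm2. A match of letters is not a measured binding site.

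Ifitm2, whose human counterpart acts on viruses that enter through endosomes, had the highest level of the family and the largest group difference among the 4 genes. It stood at 2939, 4176 and 2672 FPKM in AVP replicates 1 to 3, against 1454, 1492 and 2558 FPKM in control replicates 1 to 3. No control library reached the lowest AVP library, though control replicate 3 came close to AVP replicate 3. The means were 3262 ± 802 FPKM after AVP and 1835 ± 627 FPKM in controls (SD, n = 3 each), a ratio of 1.78. In the limma fit across 8523 genes, its log2 fold change was 0.94 (SE 0.26, 95% interval 0.33 to 1.54). The unadjusted p was 0.00736 and the adjusted p by limma was 0.324, so Ifitm2 did not pass the threshold of 0.05. Two-sided and exact, the permutation test gave p = 0.1, which is the minimum for 3 libraries against 3. With single libraries left out, the log2 fold change of Ifitm2 was 0.78 (without control replicate 1) to 1.20 (without control replicate 3, SE 0.23, adjusted p by limma 0.236).

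**Figure D1:**
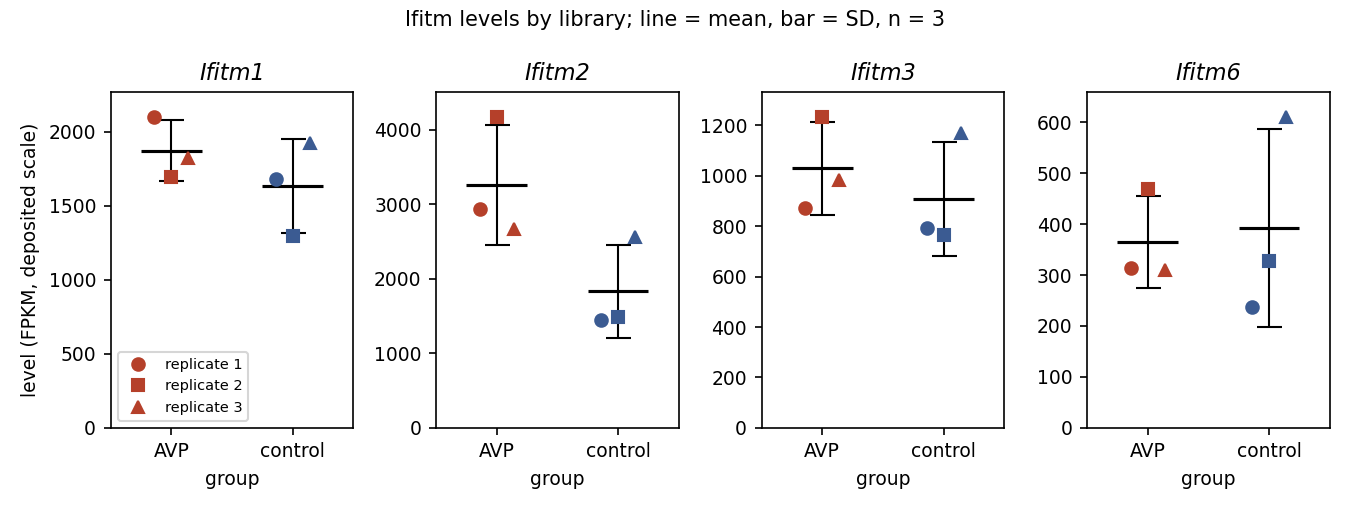
Levels of the 4 Ifitm genes in FPKM on the deposited scale, 1 panel per gene with its own axis from 0, AVP libraries on the left and control libraries on the right. Points are libraries, horizontal lines are group means and bars are the SD (n = 3). Ifitm2 is the panel in which the groups do not overlap (2672 to 4176 FPKM after AVP, 1454 to 2558 FPKM in controls), and control replicate 3 is the highest control in every panel.

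Ifitm1 had the second highest mean level. It was at 2101, 1695 and 1822 FPKM in the AVP libraries, against 1680, 1293 and 1923 FPKM in the control libraries, so the groups overlapped. Its means were 1873 ± 208 FPKM after AVP and 1632 ± 318 FPKM in controls (SD, n = 3 each). The log2 fold change was 0.29 (SE 0.22, 95% interval -0.21 to 0.79), with an adjusted p by limma of 0.782. AVP replicate 1, the library with Mcpt8 above 0, was the highest for Ifitm1, and control replicate 2 was the lowest. The log2 fold change of Ifitm1 was 0.15 without AVP replicate 1 and also 0.15 without control replicate 2. It was 0.41 without AVP replicate 2 and 0.42 without control replicate 3. The summed level of all 10 basophil markers was 623.3, 291.4 and 234.5 FPKM in the AVP libraries, against 119.2, 144.4 and 148.4 FPKM in the controls. Outside AVP replicate 1 and control replicate 2 nearly all of it came from Hdc, the histidine decarboxylase gene, at 283.4, 291.4 and 234.4 FPKM after AVP, against 119.2, 112.7 and 148.4 FPKM in controls. Control replicate 2 held other basophil markers. The IgE receptor gene Fcer1a was at 9.07 FPKM there and was listed at 0 in AVP replicate 1. Il4 was at 14 FPKM in control replicate 2, against 11.6 FPKM in AVP replicate 1. Mcpt8, Prss34 and Ms4a2 were listed at 0 in control replicate 2 and were above 0 in AVP replicate 1. The part of basophils in the level of Ifitm1 was not tested.

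Ifitm3, the member best known for restricting influenza virus in mice, overlapped between the groups as well. It was at 872.2, 1234 and 984.2 FPKM in the AVP libraries, against 791.9, 763.8 and 1169 FPKM in the controls. The means were 1030 ± 185 FPKM after AVP and 908.2 ± 226 FPKM in controls (SD, n = 3 each). Its log2 fold change was 0.28 (SE 0.22, 95% interval -0.23 to 0.78), and the adjusted p by limma was 0.798. The log2 fold change of Ifitm3 was 0.47 without control replicate 3, and 0.18 without control replicate 2, 0.18 without control replicate 1 and 0.19 without AVP replicate 2.

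Ifitm6 had the lowest level of the 4 genes and, relative to its mean, the widest spread among controls (coefficient of variation 49.7%). It was at 314.1, 468.8 and 310.8 FPKM in the AVP libraries, against 237.4, 327.7 and 610.7 FPKM in the controls, with both the lowest and the highest library in the control group. The means were 364.5 ± 90.3 FPKM after AVP and 392 ± 195 FPKM in controls (SD, n = 3 each). The log2 fold change was 0.06 (SE 0.35, 95% interval -0.75 to 0.87, adjusted p by limma 0.97), and its sign depended on the scaling and on the libraries used. Control replicate 3 and AVP replicate 2, the highest libraries for Ifitm6, were also the highest for Chil3, a gene of immature neutrophils and some macrophages. Chil3 was at 4.72, 78.4 and 0 FPKM in the AVP libraries, against 28.8, 24.2 and 238.3 FPKM in the controls. Ngp, a granule gene of immature neutrophils, ordered the libraries as Chil3 did within each group but not across the groups. It was at 24.1, 39.6 and 13.9 FPKM in the AVP libraries, against 5.41, 0 and 13.6 FPKM in the controls. The sum of all 10 markers on the neutrophil progenitor list was 33, 128.5 and 15 FPKM in the AVP libraries and 35.6, 29.6 and 254.4 FPKM in the controls. Most of this sum was Chil3 itself in AVP replicate 2 and control replicate 3. On this list Mpo, Elane, Ctsg and Ms4a3 were listed at 0 in all 6 libraries. Prtn3 was at 7.6 FPKM in AVP replicate 2 and was listed at 0 in the other 5 libraries. AVP replicate 2 and control replicate 3 also had the highest sums of the monocyte markers given above. The part of either cell type in the level of Ifitm6 was not tested. In a bulk sample, fewer cells of a type and less RNA per cell cannot be told apart.

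As a group, 0 of the 4 members passed the threshold by limma over all genes, where 0.0% of the 8523 genes tested passed in either direction. At an unadjusted p under 0.05, 1 of the 4 was higher after AVP (Ifitm2), against 4.69% of all genes, and 0 of the 4 were lower, against 3.78% (8.47% in either direction). The groups did not overlap, with AVP higher, for the same 1 of 4 members, against 6.39% of all genes. All 4 fitted fold changes were above 0, where 47.7% of all genes lay above 0, and the median was 0.28 for the members and -0.045 for all genes tested. That of Ifitm6 was near 0, and its sign was reversed under 3 of 17 alternative settings, the deposited scale (-0.018) among them. The summed level of the 4 genes was 6226, 7573 and 5790 FPKM in the AVP libraries, against 4164, 3876 and 6260 FPKM in the controls. That was 0.75%, 0.958% and 0.727% of the total FPKM after AVP, and 0.551%, 0.476% and 0.789% in controls. Control replicate 3 lay within the AVP range by both measures, and the other controls lay below it.

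**Figure D2:**
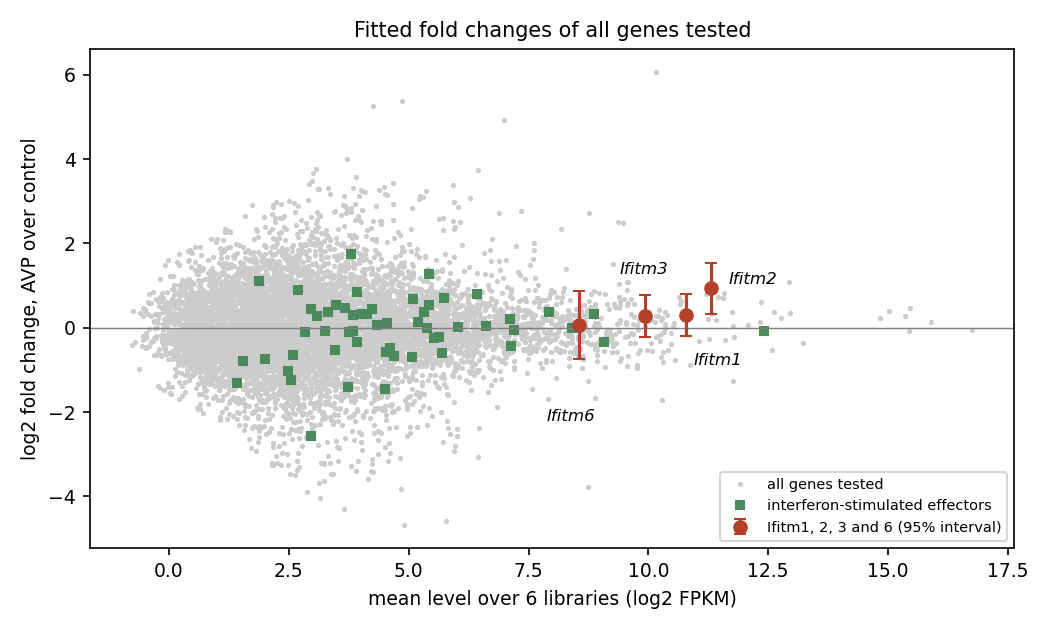
Fitted log2 fold change of AVP over control against the mean level over 6 libraries (log2 FPKM) for the 8523 genes tested. Red points are the Ifitm genes with 95% intervals, green squares are the interferon-stimulated effector genes and grey points are all genes. The Ifitm genes lie at the abundant end, and the interval of Ifitm2 (0.33 to 1.54) is the one of the 4 that does not cross 0.

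The members were among the abundant transcripts of these cells. By mean level over the 6 libraries Ifitm2 ranked 28, Ifitm1 ranked 34, Ifitm3 ranked 73 and Ifitm6 ranked 208 of 47561 features. After AVP the order in every library was Ifitm2, Ifitm1, Ifitm3 and Ifitm6, and no neighbours in that order overlapped over the 3 libraries. The same order was found in control replicates 2 and 3. In control replicate 1, Ifitm1 (1680 FPKM) was above Ifitm2 (1454 FPKM), and over the 3 controls the ranges of these genes overlapped. The other neighbours in the order, Ifitm1 with Ifitm3 and Ifitm3 with Ifitm6, did not overlap in controls.

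The balance between the members was compared within each library, since a ratio of genes from 1 library does not depend on how libraries are scaled. The ratio of Ifitm2 to Ifitm3 was 3.37, 3.39 and 2.72 in the AVP libraries, against 1.84, 1.95 and 2.19 in the controls. Every AVP library had a higher ratio than every control, control replicate 3 included. On the log2 scale the mean ratio was 1.65 ± 0.18 after AVP and 0.99 ± 0.13 in controls (SD, n = 3 each), a difference of 0.66. The ratio of Ifitm2 to Ifitm6 was 9.36, 8.91 and 8.6 in the AVP libraries, against 6.13, 4.55 and 4.19 in the controls. The AVP libraries were close to each other in this ratio, with a log2 SD of 0.061 after AVP and 0.288 in controls. The ratio of Ifitm2 to Ifitm1 was 1.4, 2.46 and 1.47 after AVP and 0.866, 1.15 and 1.33 in controls. These 3 of the 6 ratios, all with Ifitm2, did not overlap between the groups, and each gave p = 0.1 in the exact two-sided permutation test, the smallest this design allows. The ratios were looked at after the levels were known. All 3 share Ifitm2, whose own level did not overlap between the groups, so they are not separate results. How often pairs of other genes separate in this way was not counted. A ratio shows that the genes differed unequally and not which of them stayed the same.

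**Figure D3:**
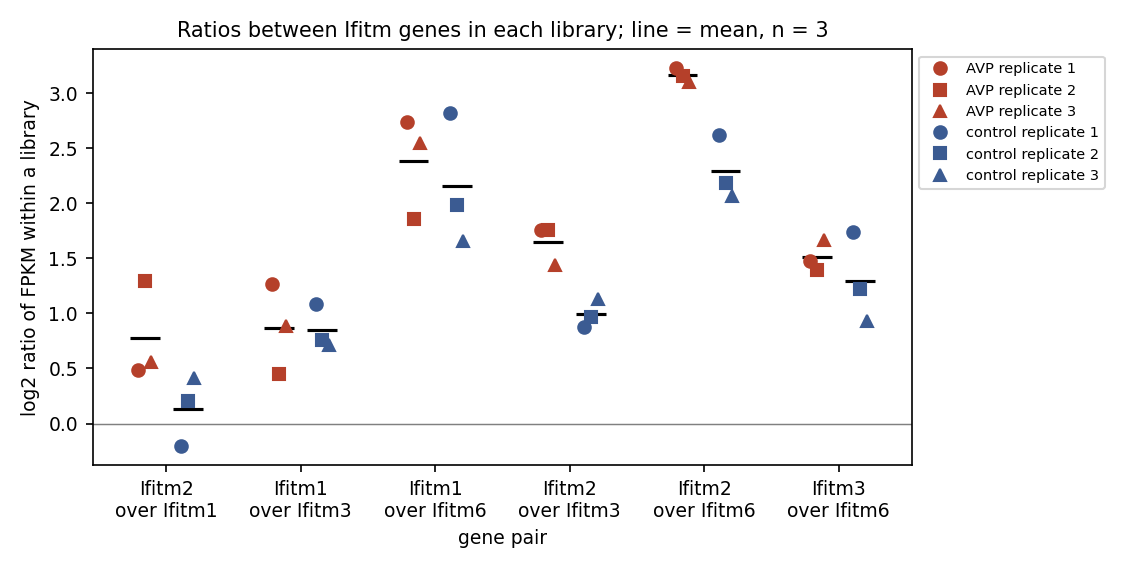
Log2 ratio of FPKM within each library for the 6 pairs of Ifitm genes, with AVP libraries in red on the left of each pair and control libraries in blue on the right. Points are libraries and lines are group means (n = 3). The groups separate in the pairs that contain Ifitm2, such as Ifitm2 over Ifitm6 (8.6 to 9.36 after AVP, 4.19 to 6.13 in controls as plain ratios), and overlap in the others.

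Among the pairs without Ifitm2, the ratio of Ifitm1 to Ifitm3 was 2.41, 1.37 and 1.85 in the AVP libraries and 2.12, 1.69 and 1.64 in the controls. Its group means differed by 0.018 on the log2 scale, less than the SD of 0.405 after AVP and 0.201 in controls. As a share of the family sum, Ifitm2 held 47.2%, 55.1% and 46.2% in the AVP libraries, against 34.9%, 38.5% and 40.9% in the controls. Ifitm3 held 14%, 16.3% and 17% of the sum after AVP and 19%, 19.7% and 18.7% in controls. Ifitm2 took a larger part of the family in every AVP library, and Ifitm3 a smaller part. Shares of 1 sum are bound together, so a larger share of Ifitm2 leaves less for the other members. The smaller share of Ifitm3 is no separate result, and its level overlapped between the groups. The transcripts of Ifitm2 and Ifitm3 are alike in parts: their longest identical stretch in the GENCODE transcripts of the same assembly is 69 bases, the longest between any pair of the members. The reads were 151 bases long, per the labels. Ifitm2 also shares stretches of at least 50 bases with 6 other annotated genes, of which Gm11951, the one matched by name in the files, stood at 0 to 6.19 FPKM. How the authors' counting assigned fragments that match several genes is not stated in the labels.

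The pattern of each member over the 6 libraries was set beside that of 1 other gene at a time, by the root mean square difference of mean-centred log2(FPKM + 1) values. The genes closest to Ifitm2 were Zfp36, which encodes an mRNA decay factor (0.131), Cdc42se1, an effector of the GTPase CDC42 (0.152), and Slpi, a secreted protease inhibitor (0.184). The log2 fold change of Zfp36 was 1.05 (SE 0.27, by limma an adjusted p of 0.295). Zfp36 was picked from 1970 candidate genes for its likeness to Ifitm2 in these libraries, so a similar fold change follows from that choice. The genes closest to Ifitm3 were Ccr1, a receptor of inflammatory chemokines (0.038), Snap23, a membrane fusion protein (0.073), and Tuba1c, a tubulin (0.104). Ifitm1 was closest to Gpx4 (0.094), a lipid peroxidase, and then to Sec61b and Iqgap1. Ifitm6 was closest to Arf1 (0.142), a GTPase of vesicle traffic, and then to Tmem134 and Uqcrc1. Among the members the closest pair was Ifitm1 with Ifitm3 (0.261), followed by Ifitm3 with Ifitm6 (0.269), and the farthest was Ifitm2 with Ifitm6 (0.468).

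**Figure D4:**
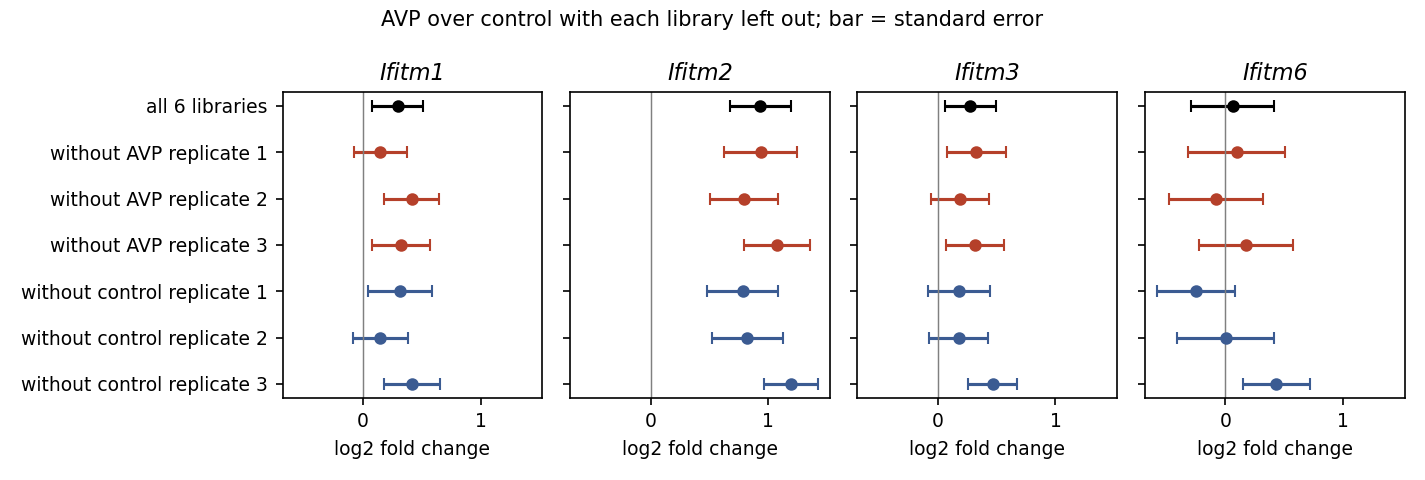
Log2 fold change of AVP over control (horizontal axis) for each Ifitm gene with all 6 libraries and after leaving out 1 library at a time (rows), where bars are standard errors. Ifitm2 ranges from 0.78 to 1.20 and stays right of 0, while Ifitm6 ranges from -0.25 to 0.43.

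The other genes of the CD225 family were at low levels. Of 10 such genes, 6 were listed at 0 in all libraries, Ifitm7 among them, and 2 passed the filter of at least 1 FPKM in 3 libraries. Ifitm5, a gene of bone-forming cells that lies beside Ifitm2, was at 8.22, 12.9 and 2.72 FPKM in the AVP libraries, against 0, 9.72 and 0.699 FPKM in the controls. Tmem265 was at 11.3, 7.58 and 3.74 FPKM after AVP, against 18.8, 0 and 4.22 FPKM in controls. The groups overlapped for both, and 0 passed by limma (0 at an unadjusted p under 0.05). Ifitm10 stayed at or below 1.185 FPKM and Tmem91 at or below 1.563 FPKM in every library.

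Genes that flank the Ifitm cluster on the same chromosome were at lower levels than its members. Of 17 fixed neighbours, 7 passed the filter and 0 passed the test by limma. An unadjusted p under 0.05 by limma was found for 1 of the 7, Sirt3, against 8.47% of all genes. The fitted fold changes were above 0 for 1 and below 0 for 6 (median -0.36). Sirt3, a mitochondrial deacetylase, was at 19.4, 16.7 and 9.26 FPKM after AVP, against 11.6, 2.35 and 0 FPKM in controls, with overlapping groups (log2 fold change 2.21, SE 0.92). Bet1l, a protein of Golgi transport, was the one tested neighbour whose groups did not overlap on the deposited scale, at 35.7, 31.1 and 34.4 FPKM after AVP, against 41.5, 36.9 and 39.6 FPKM in controls. They overlapped once the libraries were scaled (log2 fold change -0.14, SE 0.31, unadjusted p by limma 0.667). On the deposited scale, 7.63% of all genes did not overlap with AVP lower.

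The interferon genes themselves, 10 of types I, II and III that include Ifna1, Ifna2, Ifna4 and Ifna5, were listed at 0 in all 6 libraries. Such a 0 can be a failed estimate. Of 22 receptors and signalling genes 21 were tested and 0 passed by limma (1 at an unadjusted p under 0.05, against 8.47% of all genes). Their fitted fold changes were above 0 for 5 and below 0 for 16 (median -0.128). Jak1, the kinase used by all interferon receptors, was at 37.4, 37.7 and 53.9 FPKM after AVP, against 101, 73 and 73.6 FPKM in controls (log2 fold change -0.85, SE 0.30, adjusted p by limma 0.466). The groups did not overlap for Jak1, with AVP lower, as for 7.63% of all genes. Tyk2, the kinase of the type I receptor, was at 5.88, 2.75 and 4.33 FPKM after AVP and 0.812, 1.99 and 2.27 FPKM in controls (log2 fold change 1.05, SE 0.62). For Tyk2 the groups did not overlap either, with AVP higher, as for 6.39% of all genes. Irf1, an interferon-induced transcription factor, overlapped (104.2, 90.4 and 83.5 FPKM after AVP, and 100.8, 132.6 and 58.1 FPKM in controls).

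Other interferon-stimulated effector genes were split in direction. Of 61 on the list 55 were tested, and 0 passed by limma (4 at an unadjusted p under 0.05, against 8.47% of all genes). Their fitted fold changes were above 0 for 27 and below 0 for 28, with a median of -0.002. Oasl1, which dampens the translation of Irf7, was at 17.9, 19.4 and 26.7 FPKM after AVP, against 6.35, 2.89 and 10.6 FPKM in controls (log2 fold change 1.74, SE 0.54, adjusted p by limma 0.373). Irgm1, a GTPase of defence against intracellular microbes, was at 69.5, 71.1 and 39.3 FPKM after AVP, against 17.8, 30.4 and 28.2 FPKM in controls (log2 fold change 1.27, SE 0.40). On the other side, Ifi203, of the AIM2-like family, was at 8.57, 19.9 and 6.97 FPKM after AVP, against 44.5, 29.3 and 26.8 FPKM in controls (log2 fold change -1.45, SE 0.48). Gbp3, a guanylate-binding protein, was at 0, 0 and 5.81 FPKM after AVP, against 6.02, 28.4 and 6.41 FPKM in controls.

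The abundant members of the effector list had fitted fold changes of smaller size than that of Ifitm2. Ifi27l2a, the most abundant of them, was at 4767, 4816 and 5941 FPKM after AVP, against 6168, 4933 and 6160 FPKM in controls (log2 fold change -0.071, SE 0.17). Ly6e, another membrane protein that restricts coronaviruses, was at 429.3, 655.5 and 438.8 FPKM after AVP, against 445.8, 352.1 and 467.1 FPKM in controls (log2 fold change 0.33, SE 0.22). Slfn2, a regulator of immune cell quiescence, was lower in every AVP library, at 427.1, 485.9 and 466.7 FPKM, against 576.4, 553.5 and 713.7 FPKM in controls (log2 fold change -0.33, SE 0.19, adjusted p by limma 0.728). Of the 55 tested effector genes, the groups did not overlap for 5 with AVP lower, Slfn2 included, against 7.63% of all genes. For 3 of the 55 they did not overlap with AVP higher, against 6.39% of all genes.

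Proteins known from human and mouse cells to bind or modify IFITM proteins were also listed. Of 14 such genes 13 were tested, and 0 passed by limma. An unadjusted p under 0.05 by limma was found for 2, Cd9 and Fyn, against 8.47% of all genes. Fitted fold changes were above 0 for 7 and below 0 for 6 (median 0.015). Cd9, a tetraspanin of the cell surface, was at 284.1, 396.3 and 401.6 FPKM after AVP, against 226.2, 185.6 and 275.4 FPKM in controls (log2 fold change 0.73, SE 0.23, adjusted p by limma 0.378). Fyn, a kinase that phosphorylates human IFITM3, was at 2.81, 1.49 and 3.54 FPKM after AVP, against 0.0289, 0 and 0 FPKM in controls. Fyn passed the filter on low values through the AVP libraries alone, so its non-overlap and its fitted fold change, which depends on the pseudocount, are not read as a difference. Kdm1a, a demethylase that acts on IFITM3, was at 2.84, 4.59 and 4.55 FPKM after AVP, against 12.2, 9.74 and 6.61 FPKM in controls. Groups did not overlap for these 3 of the 13 tested genes, Fyn included, against 14% of all genes in either direction. They overlapped for Zmpste24, a protease that acts together with IFITM proteins, at 0, 4.1 and 2.19 FPKM after AVP, against 5.22, 4.13 and 3.13 FPKM in controls. They overlapped as well for Vapa, Cd63 and Cd81. Vapa, a membrane contact protein that IFITM3 binds, was at 96.4, 110.4 and 23.7 FPKM after AVP, against 103.4, 105.6 and 110.3 FPKM in controls.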

How the data were processed

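Total RNA of sorted mouse blood neutrophils was extracted with TRIZOL and made into TruSeq libraries, which gave paired reads of 151 bases (NovaSeq), per the labels' protocols. The submitters' processing notes name HISAT2 2.1 and the mm10 build, and besides featureCounts 1.6.4 they list DESeq2 2.11.40.6, cutadapt 1.16.5 and bcl2fastq 2.19. Roles and annotation are not given in these sources. Deposited values were taken to be FPKM, although no file states a unit. Times the mean transcript length in kilobases, they add up to between 611895 and 653106 in a library, and FPKM cannot exceed its scaling constant in that sum. Since counts are not used here, depths are estimates.

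The 8523 genes that reached 1 FPKM in 3 or more libraries were scaled by an unweighted trimmed mean of log ratios, with trims of 30% (ratios) and 5% (levels) on either side. They were tested as log2(FPKM + 1) with limma 3.58.1 in R 4.3.3, with an intensity trend, without a replicate term, and with Benjamini-Hochberg adjustment at 0.05. Fold changes are on that scale. Printed FPKM are unscaled. On simulated data for this comparison (8047 genes), recovery was 5 of 67 genes for a log2 change of 1, 35 of 67 for 2 and 58 of 66 for 4, with 7 false calls. The changed genes were drawn at random from genes above a cutoff in level, each with its own spread, and were not matched to the members.

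The members, lists and alternatives were chosen with earlier results of these data known. The genes named are the members, their relatives above 0, from each list any that passed, the 4 with the smallest p and the 4 with the highest mean, and for each member the 3 genes closest in pattern with a mean of at least 20 FPKM. Not every gene that this rule names is printed. Of the features, 94% matched the RefSeq table of GRCm38.p6 by name. Tables used Python 3.11.15 with numpy 2.4.6 and pandas 2.3.3, permutation tests scipy 1.17.1, and plots matplotlib 3.10.9.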

Additional observations from a re-analysis of the deposited data

How the results depend on the processing

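Under 17 alternatives the log2 fold changes stayed above 0 and without a call for Ifitm1 (0.091 to 0.417), Ifitm2 (0.73 to 1.20, adjusted p by limma 0.236 to 0.733) and Ifitm3 (0.176 to 0.467). Ifitm6 had no call under any of them but changed sign: it was -0.018 on the deposited scale, and with single libraries left out it ranged from -0.25 to 0.43, lowest without control replicate 1 and highest without control replicate 3. The number of genes called over all genes was 0, and it became 11 with a filter of 10 FPKM (3675 genes tested), 3 with a pseudocount of 5 and 1 with no intensity trend, all higher after AVP, and 0 to 4 with single libraries left out (4 without control replicate 3). The cause was not tested. No Ifitm gene was among them. The group difference in the log2 ratio of Ifitm2 to Ifitm3 was 0.60 to 0.77 with single libraries left out, an alternative added after seeing the data. With the replicate number as a block, 0 genes were called and Ifitm2 kept its log2 fold change of 0.94 (SE 0.31, adjusted p by limma 0.552). With no intensity trend the SE of Ifitm2 was 0.43, and its unadjusted p by limma of 0.0665 was no longer under 0.05. No pairing by replicate number was seen: deviations from the group means correlated across genes at 0.0205, -0.0129 and -0.0423 for replicates 1, 2 and 3. These values cannot exclude that samples were handled in pairs. With 3 libraries a group, few log2 changes of 1 were recovered in the simulated data. The genes changed there were not matched to Ifitm2, and most were below it in level. Their recovery therefore does not tell how often a change in Ifitm2 would be called.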
